A study of Homo sapiens with 6 samples.

Results

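Metallothioneins and zinc transporters were followed in PC-3, an established line of human prostate cancer cells, after exposure to trans-Gnetin H (TGH). The genes were the rows of the deposited expression table named MT1 with a single letter, MT2A, MTF1, SLC30A with a number or SLC39A with a number, and 29 of 18780 rows matched: 7 metallothioneins, MTF1, 8 SLC30A genes and 13 SLC39A genes. Cells grown in DMEM/F12 with fetal bovine serum were exposed for 24 h to 2.5 µM TGH, a compound built of 3 units of the plant polyphenol resveratrol (n = 3), or to the solvent dimethyl sulfoxide alone (DMSO, n = 3). No genetic change to the line is named in the labels, and whether the 3 libraries of a group came from separate cultures is not given, so the p-values measure only the spread between these libraries. Values are TPM, an abundance unit corrected for transcript length and for the total of a library, which allows levels to be compared between genes.

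Metallothioneins are small cysteine-rich proteins that bind zinc and copper and buffer their free pools. Their genes are switched on by MTF1, a transcription factor that senses zinc and binds metal response elements in promoters. Zinc enters the cytosol through carriers of the ZIP family (SLC39A genes) and leaves it, to the outside or into organelles, through carriers of the ZnT family (SLC30A genes). Normal prostate epithelium is known for accumulating zinc, a trait that prostate cancers lose.

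Libraries were alike in total and unlike in detection. The listed TPM of a library summed to between 502380 and 518870. Exact zeros numbered 3074 in DMSO replicate 1 and 3185 in DMSO replicate 2, against 1342 to 1530 in the other 4 libraries. TPM keeps no read total, so depth is unknown. Epithelial markers were high, with KRT8 at 604 ± 13.9 TPM in DMSO (SD, n = 3), while 14 markers of fibroblasts, endothelium and immune cells summed to between 3.74 and 5.31 TPM in a library, of which COL1A1 alone was kept. Of the 29 genes 21 averaged 1 TPM or more over all 6 libraries and were kept for testing.

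The cells given TGH had more mRNA of the metallothioneins MT1X, MT1F and MT1M, of the zinc importers SLC39A11, SLC39A13 and SLC39A14, and of the ZnT carriers SLC30A1, SLC30A5, SLC30A7 and SLC30A9. MT1X rose 2.50-fold, MT1F 2.16-fold and MT1M 2.32-fold, while the importers SLC39A11, SLC39A13 and SLC39A14 rose by 1.71- to 1.77-fold. The importer SLC39A1 and the organelle loader SLC30A6 fell by 0.25 and 0.19 on the log2 scale. MT2A, by far the most abundant member, and MTF1 itself were not called. Folds and differences are TGH against DMSO on the deposited log2(TPM + 1) scale, where the change of a low gene looks smaller than it is, and a call is an adjusted p under 0.05 by limma with Benjamini-Hochberg adjustment over all 12018 genes kept.

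Of the 21 genes kept 12 were higher with TGH, where 28.9% of all genes kept were higher. Another 2 were lower, where 26.3% of all genes kept were lower, and 7 were not called. The median difference was 0.22 over these 21 genes and 0.02 over all genes kept. All TGH libraries lay over all DMSO libraries in 13 of the 21, where the share over all genes kept was 33.6%, and under them in 3, where it was 30.8%. Over all genes kept 55.2% were called in either direction and 64.4% had groups that did not overlap, so a call alone says little about these families.

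**Figure D1:**
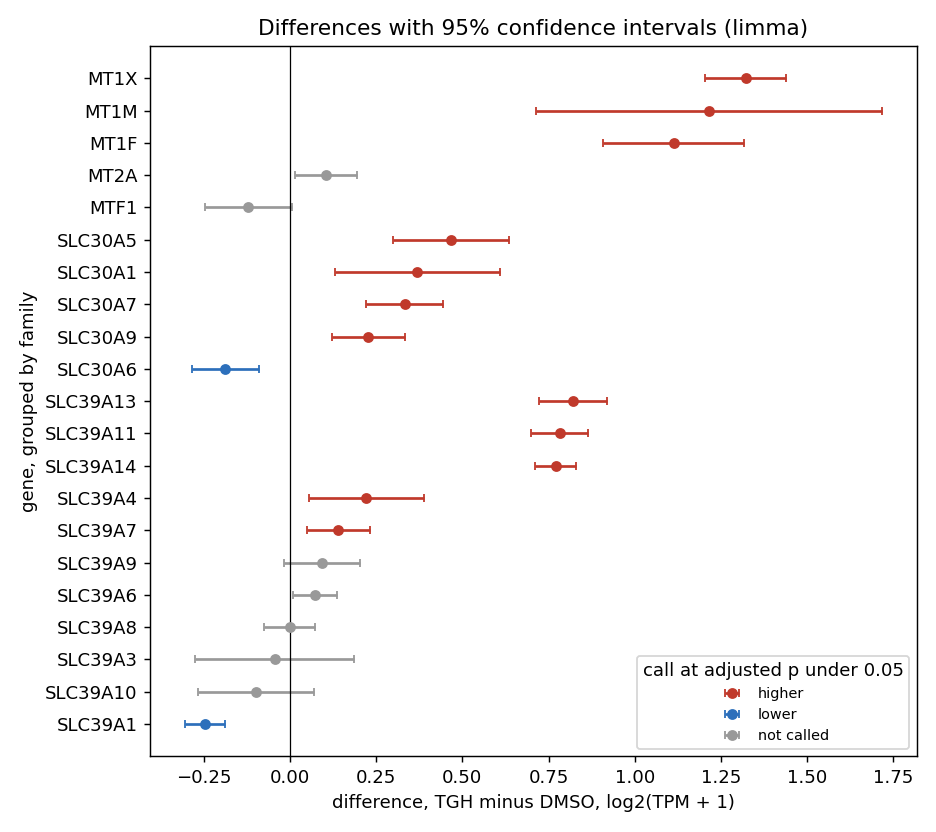
Difference between TGH and DMSO on the log2(TPM + 1) scale (horizontal axis) for each of the 21 genes kept, grouped by family, with points for the limma estimate and bars for the 95% confidence interval; colour gives the call. The 3 MT1 genes lie between 1.11 and 1.32, SLC39A11, SLC39A13 and SLC39A14 between 0.77 and 0.82, and the other 15 genes between -0.25 and 0.47.

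The metallothionein genes lie side by side in a cluster on chromosome 16, in the order MT4, MT3, MT2A, MT1E, MT1M, MT1A, MT1B, MT1F, MT1G, MT1H and MT1X with pseudogenes between them (RefSeq, GRCh38.p14). Sequence upstream of the transcription start is shown for 4 genes, to set the metal response elements beside the response: MT1X, which rose, MT2A, which was not called, MT1B, which was listed at 0 in 5 of 6 libraries, and SLC30A1, the zinc exporter known to respond to MTF1. Each run holds the 250 bases before the RefSeq start on the gene's own strand. Capitals mark matches to the core of the metal response element, TGCACNC or TGCGCNC, on either strand. The windows are chr16:56682220-56682469 (MT1X, plus strand), chr16:56608334-56608583 (MT2A, plus strand), chr16:56651636-56651885 (MT1B, plus strand) and chr1:211579162-211579411 (SLC30A1, minus strand), all in GRCh38.p14, whereas the authors used hg19.
MT1X: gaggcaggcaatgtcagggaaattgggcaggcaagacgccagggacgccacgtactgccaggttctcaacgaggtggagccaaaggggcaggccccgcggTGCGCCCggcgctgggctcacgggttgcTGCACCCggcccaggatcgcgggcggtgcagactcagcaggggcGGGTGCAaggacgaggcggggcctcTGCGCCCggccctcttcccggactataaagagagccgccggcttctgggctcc
MT2A: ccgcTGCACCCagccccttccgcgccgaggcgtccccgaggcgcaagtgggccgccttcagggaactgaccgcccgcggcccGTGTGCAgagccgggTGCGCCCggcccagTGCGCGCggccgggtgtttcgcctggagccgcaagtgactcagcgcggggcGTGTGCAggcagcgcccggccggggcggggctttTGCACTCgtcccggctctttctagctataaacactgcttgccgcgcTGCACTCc
MT1B: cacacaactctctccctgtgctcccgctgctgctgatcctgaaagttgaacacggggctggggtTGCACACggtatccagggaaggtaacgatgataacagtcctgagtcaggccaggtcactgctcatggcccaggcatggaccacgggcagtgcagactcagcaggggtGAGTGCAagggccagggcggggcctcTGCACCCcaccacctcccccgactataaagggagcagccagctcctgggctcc
SLC30A1: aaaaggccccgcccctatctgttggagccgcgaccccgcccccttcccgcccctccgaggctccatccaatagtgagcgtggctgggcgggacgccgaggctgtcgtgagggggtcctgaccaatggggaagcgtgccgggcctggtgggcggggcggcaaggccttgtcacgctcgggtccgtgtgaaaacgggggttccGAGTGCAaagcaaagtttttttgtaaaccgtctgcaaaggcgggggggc

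The window of MT2A held 7 matches, that of MT1X 4, that of MT1B 3 and that of SLC30A1 1, with no overlap between matches. Among 35116 RefSeq windows of the same length 24.8% held at least 1 match, 1.58% at least 3, 0.370% at least 4 and 0.0313% at least 7. The nearest matches began 53 bases before the start in MT1X and MT1B, 8 bases before it in MT2A and 49 bases before it in SLC30A1. MT2A was not called, at a limma adjusted p of 0.0526, and MT1B stayed near 0. Whether the number of matches bears on the response was not tested. A match is a run of letters and not a bound site. MT1E, MT1F, MT1G, MT1M, SLC39A4 and SLC39A14 had no window among the sequences used here.

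MT2A dominated the metallothionein mRNA. It was at 1103, 1027 and 1035 TPM in DMSO replicates 1 to 3 and at 1152, 1168 and 1083 TPM in TGH replicates 1 to 3, and ranked 60 of 12018 genes by mean level. The groups overlapped, since TGH replicate 3 was under DMSO replicate 1. The difference was 0.10 (SE 0.038, 95% confidence interval 0.01 to 0.20, limma adjusted p = 0.0526), a 1.08-fold difference. The call depended on the setting and was made under 6 of 18 alternatives. It was made without DMSO replicate 1 (0.14, limma adjusted p = 0.0171) and without TGH replicate 3 (0.14, adjusted p = 0.0237). With all libraries it was made with the replicate number as a block (adjusted p = 0.0359) and with robust variances (0.0409). It was also made with exact zeros as missing (0.0471) and at a mean of at least 5 TPM (0.0474). The adjusted p ranged from 0.0171 to 0.170 over the 18 alternatives.

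MT1X, the next most abundant metallothionein, was at 64.8, 59.8 and 57.3 TPM in DMSO and at 149.97, 159.1 and 149.6 TPM with TGH. The groups were far apart, with the lowest TGH library 84.8 TPM over the highest DMSO library. The mean went from 60.6 ± 3.81 to 153 ± 5.39 TPM (SD, n = 3 each), a difference of 1.32 (SE 0.049, limma adjusted p = 5.26e-06). This ranked 81 among the rises of 12018 genes.

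MT1F was at 16.05, 12.9 and 13.7 TPM in DMSO and at 29.3, 32.8 and 33.4 TPM with TGH. All TGH libraries exceeded all DMSO libraries, and the difference was 1.11 (SE 0.085, limma adjusted p = 8.43e-05).

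MT1M was low, at 0.977, 2.71 and 1.76 TPM in DMSO against 5.08, 5.38 and 5.51 TPM with TGH. Each TGH library still exceeded each DMSO library. The difference was 1.22 (SE 0.209, limma adjusted p = 0.00286), and the ratio of the mean TPM was 2.94. Its size depends on the offset, with 1.61 at a pseudocount of 0.1 and 0.61 at a pseudocount of 5. Against DMSO replicate 3 alone, the control with the fewest zeros, the difference was 1.40 for MT1X, 1.16 for MT1F and 1.20 for MT1M.

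**Figure D2:**
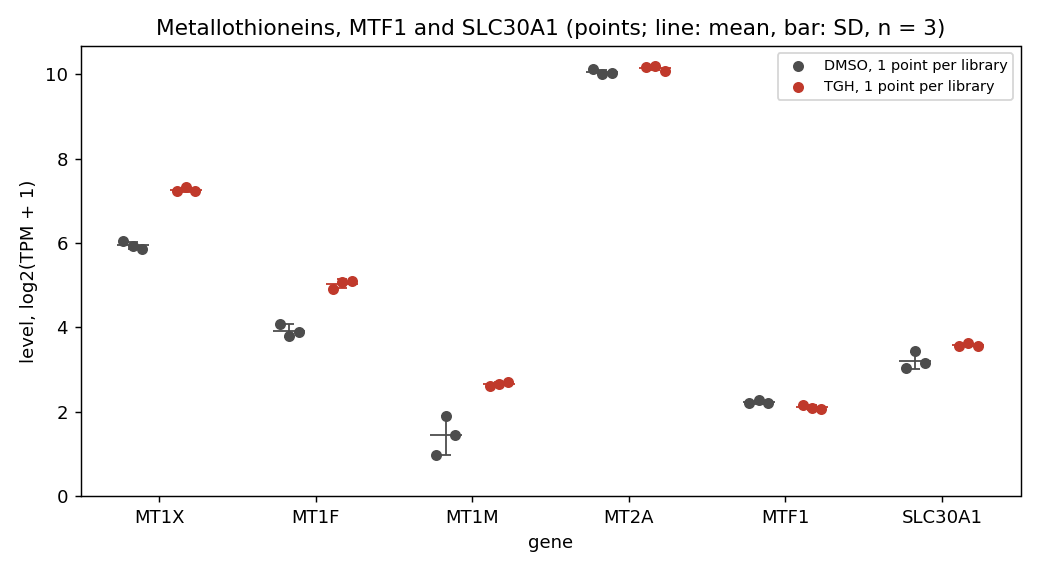
Level on the log2(TPM + 1) scale (vertical axis) of 4 metallothioneins, MTF1 and SLC30A1 in each library, with 1 point per library, a line for the group mean and a bar for the SD (n = 3). MT1X, MT1F and MT1M stand apart between groups, MT2A overlaps near 10 in both, MTF1 is slightly lower and SLC30A1 slightly higher with TGH.

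The remaining metallothioneins of the table were at or near 0. MT1E was not expressed, listed at 0 in 5 libraries and at 0.0520 TPM in TGH replicate 2. MT1B was listed at 0 except for 0.325 TPM in TGH replicate 1, and MT1G at 0 except for 0.0743 and 0.167 TPM in TGH replicates 1 and 2. No fold is given for them. MT3, a form best known from brain, was at most 0.150 TPM, and the pseudogenes MT1JP and MT1DP were near 0 as well. The genes of this cluster are near-identical in their coding parts, and reads may be split between copies, so the level of each MT1 gene is uncertain.

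Summed over the 7 genes, metallothionein mRNA was 1184, 1102 and 1108 TPM in DMSO and 1336, 1366 and 1272 TPM with TGH. Every TGH library was over every DMSO library, a description that carries no test. Without MT2A the sum went from 76.7 ± 4.65 to 190.3 ± 6.57 TPM (SD, n = 3 each). The share of MT2A fell from between 93.1% and 93.4% to between 85.2% and 86.2%, and that of MT1X went from between 5.17% and 5.47% to between 11.2% and 11.8%. MT2A remained the bulk of metallothionein mRNA in all 6 libraries, while the part made up of MT1 genes grew.

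**Figure D3:**
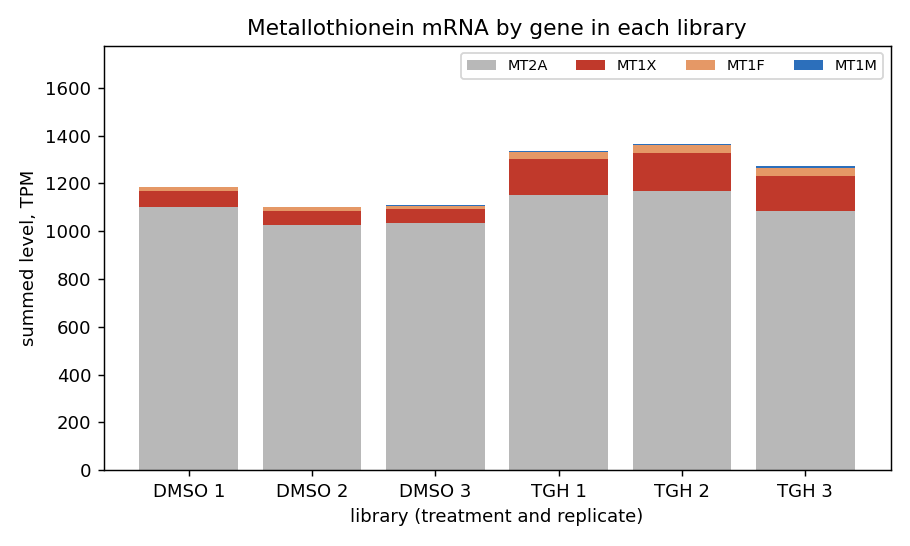
Summed TPM of MT2A, MT1X, MT1F and MT1M (vertical axis) stacked by gene in each of the 6 libraries. MT2A makes up 85.2% to 93.4% of every bar, and the MT1X layer is at least 84.8 TPM thicker in each TGH library than in each DMSO library.

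MTF1, the zinc-sensing activator, was expressed at a low level in both groups. It was at 3.66, 3.82 and 3.59 TPM in DMSO and at 3.51, 3.24 and 3.20 TPM with TGH. All TGH libraries were under all DMSO libraries, by a small margin. The difference was -0.12 (SE 0.053, 95% confidence interval -0.25 to 0.01, limma adjusted p = 0.0961) and was not called. It was called lower after median scaling (-0.15, adjusted p = 0.0483), after quantile normalization (-0.23, adjusted p = 0.0126) and with variances without trend (adjusted p = 0.0484), and over 17 alternatives the adjusted p ranged from 0.0126 to 0.352.

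Among the ZnT genes SLC30A1 encodes the exporter of the plasma membrane. It was at 7.21, 9.89 and 7.92 TPM in DMSO and at 10.9, 11.3 and 10.8 TPM with TGH. DMSO replicate 2 came close to the TGH libraries, and the groups did not overlap. The difference was 0.37 (SE 0.0997, limma adjusted p = 0.0186). The call was lost without DMSO replicate 3 (adjusted p = 0.0576), without TGH replicate 1 (0.0562) and without TGH replicate 2 (0.0619).

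SLC30A5, SLC30A6 and SLC30A7 load zinc into the early secretory pathway, where it reaches enzymes such as alkaline phosphatases, and SLC30A5 works as a pair with SLC30A6. SLC30A5 was at 12.3, 12.8 and 15.0 TPM in DMSO and at 19.2, 18.4 and 18.8 TPM with TGH. The difference was 0.47 (SE 0.070, limma adjusted p = 0.00159), and it was 0.31 against DMSO replicate 3 alone, the highest control. SLC30A7, which works without that partner, was at 4.63, 4.79 and 4.91 TPM in DMSO and at 6.54, 6.02 and 6.29 TPM with TGH, and its difference was 0.33 (SE 0.047, adjusted p = 0.00115).

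The partner SLC30A6 went the other way. It fell from 13.5 ± 0.534 to 11.7 ± 0.293 TPM (SD, n = 3 each), a difference of -0.19 (SE 0.040, limma adjusted p = 0.00763), so SLC30A5 and SLC30A6, near-equal in DMSO, stood at 18.8 and 11.7 TPM with TGH. SLC30A9, a carrier of mitochondria, rose by 0.23 (SE 0.044, adjusted p = 0.00492). Of the 8 SLC30A genes 5 were kept, with 4 higher and 1 lower, where 28.9% and 26.3% of all genes kept were. The median difference was 0.33 over these 5 genes and 0.02 over all genes kept.

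The other 3 SLC30A genes were low. SLC30A4, an endosomal carrier, was at 0.312, 0.270 and 0.483 TPM in DMSO and at 0.584, 0.582 and 0.666 TPM with TGH, and without the filter on low values it was called higher (0.25, limma adjusted p = 0.0283). SLC30A3, a carrier of synaptic vesicles, was between 0.0566 and 0.195 TPM. SLC30A2 was not expressed, with at most 0.0398 TPM.

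Among the ZIP genes 3 rose well beyond the rest. SLC39A14, a cell surface carrier that also takes up iron and manganese, was at 33.9, 35.0 and 34.1 TPM in DMSO and at 59.4, 59.6 and 58.9 TPM with TGH. The libraries of a group spanned 1.16 TPM in DMSO and 0.729 TPM with TGH, and the difference was 0.77 (SE 0.025, limma adjusted p = 3.29e-06). In background, this gene is known to respond to inflammation and to stress of the endoplasmic reticulum (ER).

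SLC39A13, a carrier of the ER, Golgi and their vesicles needed in connective tissue, was at 15.5, 14.9 and 15.9 TPM in DMSO and at 26.7, 29.0 and 28.4 TPM with TGH. The difference was 0.82 (SE 0.042, limma adjusted p = 1.72e-05). SLC39A11, a member of the family placed mainly in the Golgi and nucleus, was at 9.71, 9.77 and 10.0 TPM in DMSO and at 17.5, 18.1 and 17.2 TPM with TGH, and its difference was 0.78 (SE 0.035, adjusted p = 1.13e-05). These 3 genes ranked 304 to 350 among the rises of 12018 genes.

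SLC39A1, a plasma membrane importer known as a main route of zinc uptake in prostate cells, was the most abundant ZIP gene in DMSO. It was at 106.4, 103.2 and 102.9 TPM in DMSO and at 86.2, 89.2 and 87.7 TPM with TGH. The groups were clearly apart, and SLC39A1 fell by 0.25 (SE 0.024, limma adjusted p = 0.000247). SLC39A7, which releases zinc from the ER, went from 94.3 ± 4.84 to 104.1 ± 1.23 TPM (SD, n = 3 each). With TGH it stood over SLC39A1, although its difference was only 0.14 (SE 0.038, adjusted p = 0.0182).

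SLC39A4, the importer of the gut epithelium, went from 39.5 ± 3.83 to 46.1 ± 1.54 TPM (SD, n = 3 each), and its difference was 0.22 (SE 0.070, limma adjusted p = 0.0329). Both calls were lost after median scaling (adjusted p = 0.0549 for SLC39A4 and 0.0607 for SLC39A7), and that of SLC39A4 also without the filter on low values (0.0628). SLC39A4 was not called either without any 1 of the TGH libraries (adjusted p from 0.0674 to 0.104), and its difference against DMSO replicate 3 alone was 0.14. SLC39A7 was not called without DMSO replicate 2 (0.0518), DMSO replicate 3 (0.0567), TGH replicate 2 (0.0609) or TGH replicate 3 (0.059).

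The other ZIP genes kept, SLC39A3, SLC39A6, SLC39A8, SLC39A9 and SLC39A10, were not called, with differences from -0.10 to 0.09. SLC39A8, a carrier of zinc and manganese, had means of 18.5 ± 0.283 and 18.4 ± 0.391 TPM (SD, n = 3 each) in DMSO and TGH, with a 95% confidence interval of the difference from -0.08 to 0.07. SLC39A6, an importer of the plasma membrane, had a difference of 0.07 (limma adjusted p = 0.0569) although its groups did not overlap, and it was called higher without the filter on low values (adjusted p = 0.0336) and at a mean of at least 5 TPM (adjusted p = 0.0421). SLC39A3, an importer of the cell surface, ranged from 22.3 to 29.8 TPM in DMSO and from 24.1 to 25.7 TPM with TGH, so its groups overlapped. SLC39A2 and SLC39A5 were not expressed, with at most 0.0918 and 0.0607 TPM. Without the filter on low values SLC39A5 was nonetheless called higher (0.057, limma adjusted p = 0.0459), at levels near 0. Over the 11 ZIP genes kept the count was 5 higher, 1 lower and 5 not called. Among all genes kept 28.9% were higher and 26.3% lower, so the share of ZIP genes called in either direction was near that of all genes, 55.2%. The median difference was 0.09 over the ZIP genes kept and 0.02 over all genes kept.

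**Figure D4:**
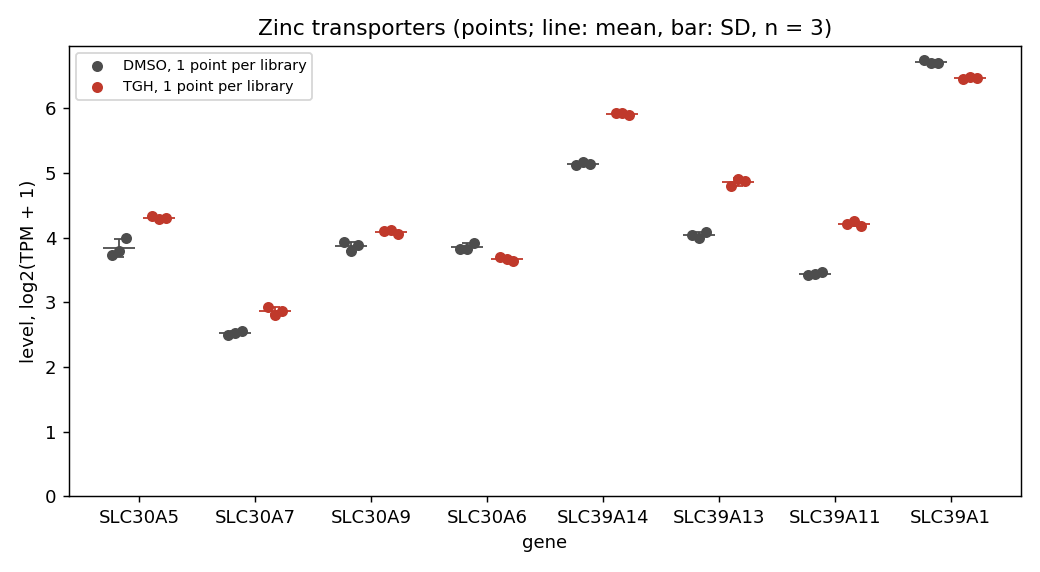
Level on the log2(TPM + 1) scale (vertical axis) of 4 SLC30A and 4 SLC39A genes in each library, with 1 point per library, a line for the group mean and a bar for the SD (n = 3). SLC39A14, SLC39A13 and SLC39A11 are 0.77 to 0.82 higher with TGH, and SLC30A6 and SLC39A1 are lower.

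Upstream sequence of SLC30A5 and SLC39A13 is shown because both rose and both held TGACGTGG, a core form of the unfolded protein response element read by the ER stress factors XBP1 and ATF6. This search was added after the values were seen, together with that for the ER stress element (CCAAT, any 9 bases, CCACG) and its second form (ATTGG, any 1 base, CCACG), which on either strand matched none of the windows of these families and 0.0740% and 0.0513% of all windows. Capitals mark the match, and the 250 bases before the start are given on the gene's strand, at chr5:69093764-69094013 and chr11:47408340-47408589 (both plus strand, GRCh38.p14).
SLC30A5: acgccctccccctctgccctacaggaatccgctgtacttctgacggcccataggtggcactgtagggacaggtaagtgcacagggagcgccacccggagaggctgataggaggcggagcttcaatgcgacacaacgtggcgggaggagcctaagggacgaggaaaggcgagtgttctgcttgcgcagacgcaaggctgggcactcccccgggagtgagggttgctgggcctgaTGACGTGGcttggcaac
SLC39A13: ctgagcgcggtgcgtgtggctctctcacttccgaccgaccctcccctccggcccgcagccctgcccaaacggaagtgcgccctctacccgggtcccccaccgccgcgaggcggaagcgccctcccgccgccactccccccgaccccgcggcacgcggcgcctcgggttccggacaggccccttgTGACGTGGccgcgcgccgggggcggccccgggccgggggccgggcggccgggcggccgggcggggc

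The match began 17 bases before the start in SLC30A5 and 66 bases before it in SLC39A13, where it was in 1 of the 2 windows listed for the gene. Of the 31 windows of 23 genes of these families 2 held it, against 0.612% of all 35116 windows. SLC30A7, SLC39A7 and SLC39A11 held none of these 3 motifs in their windows. At least 1 metal response element core stood in 14 of the 31 windows, against 24.8% of all windows. Among genes that rose it was in the windows of MT1X, SLC30A1 and SLC39A13, for the last in the window shown, where it is left in lower case, and not in those of SLC30A5, SLC30A7, SLC30A9, SLC39A7 and SLC39A11. SLC30A6 and SLC39A1, which fell, held 1 core each, the latter in 1 of its 2 windows.

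Lists of related genes give the surroundings of these families. Of 14 kept genes of other zinc handling 6 were higher and 1 was lower, against 28.9% and 26.3% of all genes kept, with a median of 0.11, where the median over all genes kept was 0.02. TMC6, a membrane protein that binds the exporter SLC30A1, rose by 0.67 (SE 0.049), MCOLN1, a lysosomal cation channel, by 0.54 (SE 0.036), KLF4, a zinc finger transcription factor, by 0.50 (SE 0.069), and S100A9, a subunit of the zinc-binding protein calprotectin, fell by 0.26 (SE 0.042), with limma adjusted p from 5.01e-05 to 0.00201.

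Of 10 kept genes outside the families that are linked to MTF1 or to added zinc, 4 were higher and 4 lower, against 28.9% and 26.3% of all genes kept, with a median of 0.08. TXNRD1, a thioredoxin reductase, fell by 0.36, DNAJB1, a heat shock co-chaperone, by 0.25 and HSPA1A, an inducible HSP70, by 0.27, while KLF4 rose (limma adjusted p from 3.67e-05 to 0.00494). KLF4 was counted both in this list and in that of other zinc handling.

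Metallothioneins also respond to glucocorticoids. Of 8 kept glucocorticoid receptor targets 1 was higher and 2 were lower, against 28.9% and 26.3% of all genes kept, with a median of 0.01. FKBP5, a co-chaperone of the receptor, fell by 0.49, and ANGPTL4, a secreted lipase inhibitor, fell by 0.997, while DUSP1, a phosphatase of MAP kinases, rose by 0.35 (limma adjusted p from 0.000306 to 0.000981). Of 10 kept transcription factors and cofactors known to act on metallothionein genes 1 was higher and 5 were lower, against 28.9% and 26.3% of all genes kept, with a median of -0.10. NR3C1, the glucocorticoid receptor, fell by 0.28, SP1 by 0.20, CTCF, a chromatin architecture factor, by 0.47 and HNRNPK by 0.33, and PHF20L1 rose by 0.37 (limma adjusted p from 4.13e-05 to 0.00506). STAT3 was at most 0.00293 TPM, and PC-3 is known to lack this gene.

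The settings of the analysis were varied for every gene kept, and the pattern over settings is plotted for all 21. MT1X, MT1F, SLC30A5, SLC30A7, SLC30A9, SLC39A11, SLC39A13 and SLC39A14 had a rise that was called under each of 18 alternatives. SLC30A6 and SLC39A1 had a fall that was called under each of them. The rise of MT1M was called under each of the 17 alternatives in which it was kept. MT2A, MTF1, SLC30A1, SLC39A3, SLC39A4, SLC39A6 and SLC39A7 were each called under some settings and not under others.

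**Figure D5:**
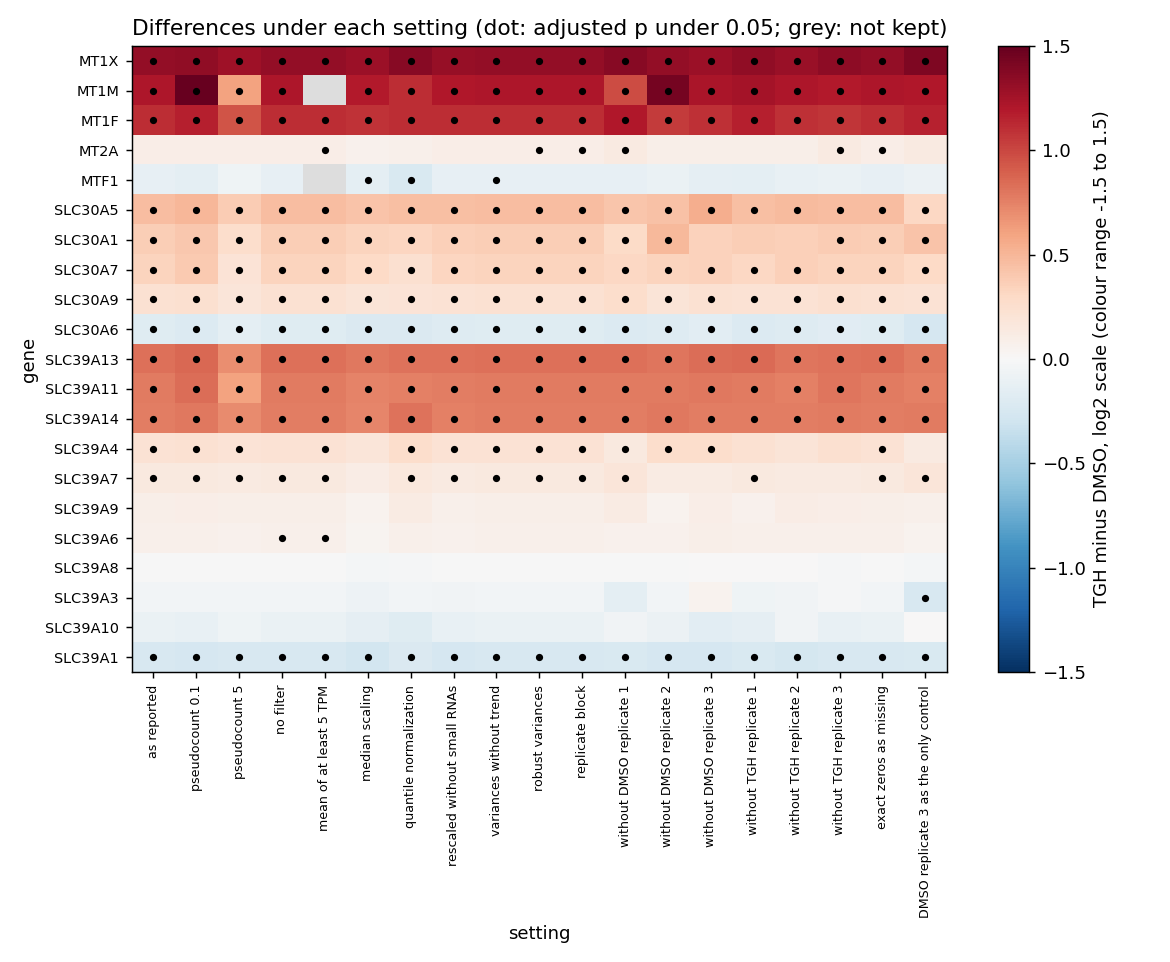
Difference between TGH and DMSO on the log2 scale (colour) for each of the 21 genes kept (rows) under each setting (columns), with a dot where the adjusted p is under 0.05 and grey where the gene was not kept. Rows with dots throughout, such as MT1X and SLC39A14, kept their call under every setting shown.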

How the data were processed

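RNA of 6 PC-3 libraries was sequenced after ribosomal RNA depletion with a directional kit, per the labels' protocols. The values are log2(TPM + 1) as deposited by the authors, 1 row per gene symbol. The offset of 1 was read from the smallest value, 0. Per the submitters' processing notes hg19 was used, while the sources used here name no aligner, quantifier or annotation. A library's listed TPM make up 50.2% to 51.9% of a full TPM column.

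Groups were taken from the labels. Genes averaging 1 TPM or more were kept and TGH was compared with DMSO with limma 3.58.1 in R 4.3.3 (variance trend, no block, two-sided, Benjamini-Hochberg over 12018 genes). The step was first tested on simulated data with known changes. There 41.2% of changes of 0.25 on the log2 scale were called, 80.6% of 0.5 and 97.0% of 1. Only 200 of 12018 genes were changed in the simulation, whereas 55.2% were called here, so its error rates need not hold for these data. Alternatives varied the pseudocount, filter, scaling, variance model, block, zeros and libraries. Members and lists were chosen with earlier results of these data known. Per library values are given for kept metallothioneins, MTF1, SLC30A1 and transporters called with a difference of at least 0.3, and SLC39A1, SLC30A4 and the near-zero metallothioneins were added after their values were seen. From each list up to 4 genes with the smallest p are named, with others named after their values were seen. Genes under 0.1 TPM in every library are called not expressed. Promoter windows came from RefSeq (GRCh38.p14), with windows for 23 of 29 genes. Protein sequences were not used here. Figures were drawn with matplotlib 3.10.9.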

Additional observations from a re-analysis of the deposited data

How the results depend on the processing

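For the 21 genes kept, 18 alternatives gave 376 values, of which 345 kept direction and call, 14 lost a call, 12 gained one and 5 changed sign. MT1X, MT1F, MT1M, SLC30A5, SLC30A6, SLC30A7, SLC30A9, SLC39A1, SLC39A11, SLC39A13 and SLC39A14 kept both under every alternative in which they were kept. The sign changes were those of genes not called in the main fit. SLC39A10 was at 0.011 against DMSO replicate 3 alone. SLC39A3 ranged from -0.148 to 0.054 when 1 library was left out, and was at -0.239 against DMSO replicate 3 alone. SLC39A8 ranged from -0.017 to 0.011 when 1 library was left out. The ZIP genes called higher numbered 3 after median scaling and 3 to 5 when 1 library was left out, where 9 to 13 members were higher, 2 were lower, and 3 to 4 metallothioneins and 3 to 4 SLC30A genes were higher. Over all alternatives members higher reached 14, SLC30A genes 5 and SLC39A genes 6 without the filter on low values, and 3 members were lower after median scaling, after quantile normalization, with variances without trend and against DMSO replicate 3 alone. With the replicate block 13 members were higher and 2 lower, the added call being MT2A. Same-numbered libraries correlated at 0.009, 0.054 and 0.228 in their deviations, so the numbers were not taken to pair them, and not every library correlated best with its own number. Over all genes, leaving out a library gave 2858 to 3535 higher and 2557 to 3175 lower. A mean of at least 5 TPM removed MT1M and MTF1. TPM without read totals sets no detection limit for genes near 0, and 18 genes over 5 TPM in 5 libraries were listed at 0 in the other, none of them a member.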

Other observations

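The genes on either side of the metallothionein cluster were looked at after the data had been seen. The 3 nearest kept genes on one side were BBS2, a subunit of a ciliary complex, which rose by 0.67 (SE 0.036), OGFOD1, a prolyl hydroxylase of the ribosome, which fell by 0.16 (SE 0.034), and NUDT21, an mRNA cleavage factor, which fell by 0.45 (SE 0.028). On the other side NUP93, a nucleoporin, fell by 0.24 (SE 0.027), HERPUD1, an ER membrane protein of protein degradation, rose by 2.04 (SE 0.055) and CPNE2, a copine, fell by 0.26 (SE 0.059), with limma adjusted p at or under 0.0102 for all 6. Rises and falls stood next to each other around the cluster. Over all genes kept 55.2% were called, with 28.9% higher and 26.3% lower. A shared effect on this stretch of the chromosome was not tested.

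Copper, which metallothioneins also bind, has its own carriers and chaperones. Of 16 kept genes of copper handling 7 were higher and 2 lower, against 28.9% and 26.3% of all genes kept, with a median of 0.08. STEAP3, a metal reductase of endosomes, went from 16.3 ± 0.280 to 30.2 ± 0.567 TPM and COMMD1, a copper-binding regulator, from 32.4 ± 1.29 to 45.9 ± 2.34 TPM (SD, n = 3 each). COX17, which carries copper to cytochrome oxidase, rose by 0.39, while STEAP4, another metal reductase, fell by 0.62 (limma adjusted p from 4.74e-06 to 0.000214 for these 4). Named after their values were seen, SOD1, a copper and zinc enzyme against superoxide, fell by 0.30 and its copper chaperone CCS rose by 0.50 (adjusted p = 0.000233 and 0.000879).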
